A study of Mus musculus with 9 samples.

Results

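A set of 10 genes that export, import, store and sense iron in macrophages was followed in unstimulated RAW264.7 cells, a mouse macrophage line, and all 10 passed the filter on low counts, out of 55487 genes listed. They are the exporter Slc40a1 (ferroportin), the transporters Slc11a1 (NRAMP1) and Slc11a2 (DMT1), the transferrin receptor Tfrc, the ferritin subunits Fth1 and Ftl1, the heme oxygenase Hmox1, the iron sensors Ireb2 (IRP2) and Aco1 (IRP1), and Ncoa4, the receptor that carries ferritin to lysosomes. The set was chosen by function, and in part because Slc40a1 moved in opposite directions in the edited cells. The values of Slc40a1 against wild-type are therefore a description, and no test is given for them.

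RNA was compared between 3 genotypes with 3 libraries each. Wild-type macrophages had an intact gene for C/EBPδ, a CCAAT/enhancer-binding transcription factor. In homozygous ΔTAD macrophages CRISPR/Cas9 had removed the transactivation domain of C/EBPδ in frame, and in homozygous knock-out macrophages a like deletion shifted the reading frame. All cells were grown without stimulation, edited cells came from single-cell-derived clones, and it is not clear which library of a genotype came from which clone, so p-values measure the spread between these libraries, which may be technical. Both edited genotypes are set against the same 3 wild-type libraries. In bulk RNA, fewer cells of a type and less RNA per cell cannot be told apart.

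Between 16113306 and 20981829 counts per library fell on genes. ΔTAD replicate 1 stood apart, with the lowest share of records counted on genes (46.7% against 48.0% to 53.2%) and the lowest scaling factor (0.888 against 0.999 to 1.03). Of 10 macrophage markers 9 passed the filter, and their summed level ranged from 3498 to 3686 CPM (counts relative to library size, after TMM scaling between libraries) among wild-type, from 4613 to 4995 among knock-out and from 7126 to 7304 among ΔTAD libraries. Most of this rise was Lyz2 (lysozyme), at 1099 to 1219, 2007 to 2280 and 4104 to 4244 CPM in the same order, and the other 8 markers summed to 2399 to 2502, 2606 to 2715 and 3000 to 3059 CPM. Of the 9 tested markers, 6 were called higher and 1 lower in knock-out (66.7% and 11.1%, against 22.8% and 22.4% of all tested genes). In ΔTAD macrophages 7 were called higher and 1 lower (77.8% and 11.1%, against 26.3% and 23.4%). The lower one was in both cases Fcgr1, a macrophage Fc receptor (-1.14 and -0.44 on the log2 scale). Among those called higher in both, Adgre1 was at 1.45 and 1.71. The markers that define red pulp macrophages, the iron-recycling cells of the spleen, were mostly missing, since Spic, Vcam1, Cd163 and Timd4 had at most 1 count in any library. The other 2 of the 6, Siglec1 at 5.05 and Cd5l at 5.82 CPM in wild-type, were called lower in both edited genotypes (-1.04 and -1.63 for Siglec1, -1.15 and -0.81 for Cd5l, log2). Erythroid, fibroblast and B cell markers had at most 3 counts per gene. Of the T cell markers Lck had 68 to 126 counts and was called lower in both edited genotypes (-0.49 and -0.44, log2), while Cd4 had at most 6 and the others at most 1. Of the neutrophil markers S100a8 had 6 to 26 counts and was not called, and the others had at most 3. Whether these differences in marker genes have a part in the results was not tested.

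Macrophages recycle the iron of old red blood cells. Heme is opened by heme oxygenase, metal is carried out of phagosomes and endosomes by NRAMP1 and DMT1, and cytosolic iron is either held in ferritin or released through ferroportin, the known iron exporter of the cell. When iron is scarce, IRP1 and IRP2 bind iron-responsive elements, short RNA hairpins with a CAGUGN loop. A hairpin in the 5′ untranslated region (UTR) holds back translation, and hairpins in the 3′ UTR of the transferrin receptor keep its mRNA stable. RAW264.7 cells are known to carry the inactive allele of Slc11a1, so its mRNA level says nothing of transport in these cells.

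The hairpins below are those found fully paired in the mRNA of members. A member without one, such as Slc11a2 with 4 of 5 pairs, may still carry this control. The iron-responsive element motif (a bulged C, 5 bases of stem and the loop CAGTGN) was searched on the sense strand of annotated transcripts (GRCm38), and a match was called paired where all 5 bases before the loop could pair with the 5 bases after it, G with T included. Of the 10 genes, 4 held at least 1 paired match, 7 matches in all. The capitals mark the loop.
Slc40a1, 5′ UTR, chr1:45925465-45925493, minus strand: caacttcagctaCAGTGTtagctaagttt
Fth1, 5′ UTR, chr19:9982732-9982760, plus strand: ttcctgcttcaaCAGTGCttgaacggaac
Ftl1, 5′ UTR, chr7:45459779-45459807, minus strand: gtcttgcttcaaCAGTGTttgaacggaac
Tfrc, 3′ UTR, chr16:32631219-32631247, plus strand: aattatcggaagCAGTGCcttccataatt
Tfrc, 3′ UTR, chr16:32631598-32631626, plus strand: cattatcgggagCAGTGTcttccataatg
Tfrc, 3′ UTR, chr16:32631663-32631691, plus strand: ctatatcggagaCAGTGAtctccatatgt
Tfrc, 3′ UTR, chr16:32631710-32631738, plus strand: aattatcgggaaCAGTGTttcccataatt

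A paired match in the 5′ UTR was held by 0.0961% of the 21845 genes searched, and a paired match in the 3′ UTR by 0.504%. Without pairing the letters alone were found in the 5′ UTR of 7.64% of genes. Slc11a2 held a match with 4 of 5 pairs in the 3′ UTR of 1 of its transcripts, at chr15:100395153-100395181 on the minus strand.
Slc11a2, 3′ UTR: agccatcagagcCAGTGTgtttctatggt
Slc11a2 isoforms with and without this 3′ UTR are not separated by counts per gene. Gene counts measure mRNA and not its translation, so a change at the level of the 5′ hairpins of Slc40a1, Fth1 and Ftl1 would not appear in them.

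Relative to transcript length, ferritin mRNA was by far the most abundant of the 10 and Ncoa4 and Slc40a1 were the least. In wild-type macrophages Fth1 stood at 1661 ± 51.3 and Ftl1 at 1574 ± 78.7 CPM per kb of principal transcript (SD, n = 3), and the libraries of these neighbours overlapped. Tfrc followed at 227 ± 6.45 and Hmox1 at 208 ± 9.16 CPM per kb. Below them came Slc11a1 at 35.7, Ireb2 at 29.8, Aco1 at 20.6, Slc11a2 at 13.5, Slc40a1 at 11.7 and Ncoa4 at 6.18 CPM per kb. No other neighbours in this wild-type order overlapped between libraries, none did in knock-out macrophages, and in ΔTAD macrophages only Ireb2 and Aco1 did. Slc40a1 took rank 9 in wild-type, rank 7 in knock-out (24.3 ± 0.258 CPM per kb) and rank 10 in ΔTAD macrophages (4.77 ± 0.208 CPM per kb). When the union of all exons was used as the length, Slc40a1 kept rank 9 in knock-out macrophages and Ftl1 stood above Fth1 in every genotype.

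**Figure D1:**
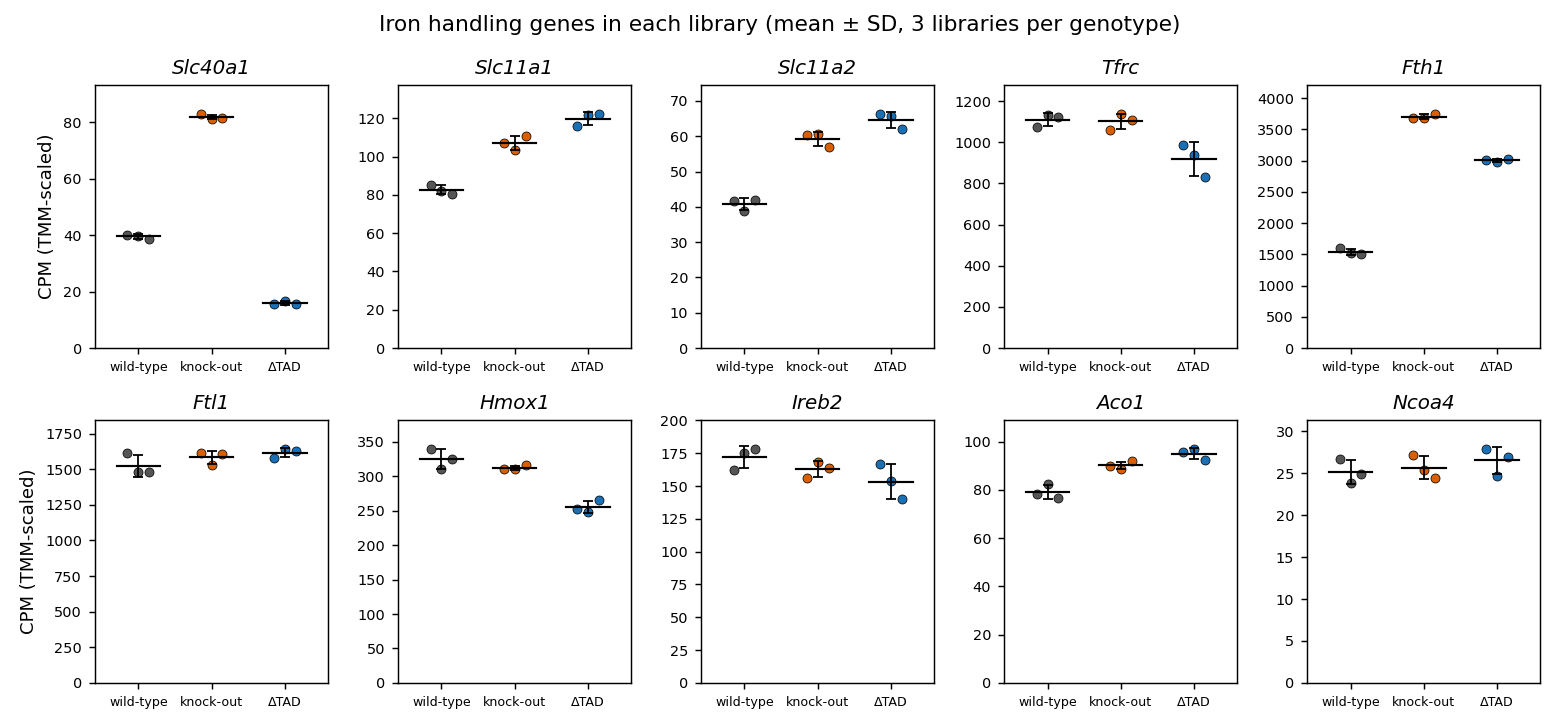
CPM of each of the 10 genes in each library (y axis, linear from 0, TMM-scaled) by genotype (x axis), with points for libraries and bars for mean ± SD of 3 libraries. Slc40a1 is highest in knock-out (81.3 to 82.9 CPM) and lowest in ΔTAD macrophages (15.5 to 16.9 CPM), whereas Fth1 is above every wild-type library in both edited genotypes.

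Ferroportin mRNA, from Slc40a1 (ENSMUSG00000025993, chr1:45908068-45926523 on the minus strand of GRCm38), went up in knock-out and down in ΔTAD macrophages. Its levels were 40.2, 39.8 and 38.7 CPM in the wild-type libraries, 82.9, 81.3 and 81.4 CPM in the knock-out libraries and 15.5, 16.9 and 15.8 CPM in the ΔTAD libraries. Libraries of a genotype differed little, and the genotypes did not overlap. The fitted log2 fold change was 1.05 ± 0.0435 (SE) for knock-out, a 2.07-fold higher level, and -1.30 ± 0.0548 for ΔTAD macrophages, a 2.46-fold lower level. Between the edited genotypes the fitted log2 difference was 2.35, or 5.08-fold. The values rest on 222 to 1572 counts per library.

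On chromosome 1, Slc40a1 moved against the median of its neighbours in knock-out, and in the same direction but further in ΔTAD macrophages. The 12 other tested genes that start within 2 Mb of it had median log2 values of -0.25 for knock-out and -0.27 for ΔTAD against wild-type. Around the other 9 genes such medians lay between -0.11 (Hmox1) and 0.04 (Slc11a1) for knock-out, and between -0.09 (Ireb2) and 0.15 (Aco1) for ΔTAD macrophages. Among 13258 tested genes with at least 1 CPM in their highest genotype, the 5 whose log2 CPM followed Slc40a1 most closely over the 9 libraries were Plau (r = 0.996), Rasal2 (0.996), Ptpn22 (0.995), Spp1 (0.995) and Gfpt1 (0.994), by Pearson's r. These libraries form 3 clusters by genotype, so r describes a shared order of 3 levels. Plau, which encodes urokinase, had log2 fold changes of 0.57 and -0.77 for knock-out and ΔTAD macrophages, and Spp1, which encodes osteopontin, had 0.56 and -0.52. All 5 had smaller log2 fold changes than Slc40a1 in both genotypes. Within the set, Hmox1 (r = 0.788) and Tfrc (r = 0.773) were nearest to Slc40a1, and Fth1 was at 0.167.

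Among the other 9 genes, 4 were called higher in knock-out macrophages and 0 lower, at an adjusted p-value under 0.01 in edgeR. The count of lower genes was also 0 at an unadjusted p-value under 0.05, by DESeq2 and by limma-voom. Of all 14312 tested genes 45.2% were called in this comparison, 22.8% higher and 22.4% lower. In ΔTAD macrophages 4 of the 9 were called higher and 3 lower, where 49.7% of all genes were called, 26.3% higher and 23.4% lower. The 4 called higher were in both cases Slc11a1, Slc11a2, Fth1 and Aco1, and the 3 called lower in ΔTAD macrophages were Tfrc, Hmox1 and Ireb2. Knock-out against ΔTAD macrophages gave 3 higher (Tfrc, Fth1 and Hmox1) and 1 lower (Slc11a1), where 33% of all genes were called, 13.9% higher and 19.1% lower. The median log2 fold change of the 9 was 0.06 for knock-out and 0.09 for ΔTAD macrophages, where the medians of all tested genes were -0.00105 and -0.00332. As the set is small and was chosen with results known, these counts describe the genes and carry no test of the set.

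**Figure D2:**
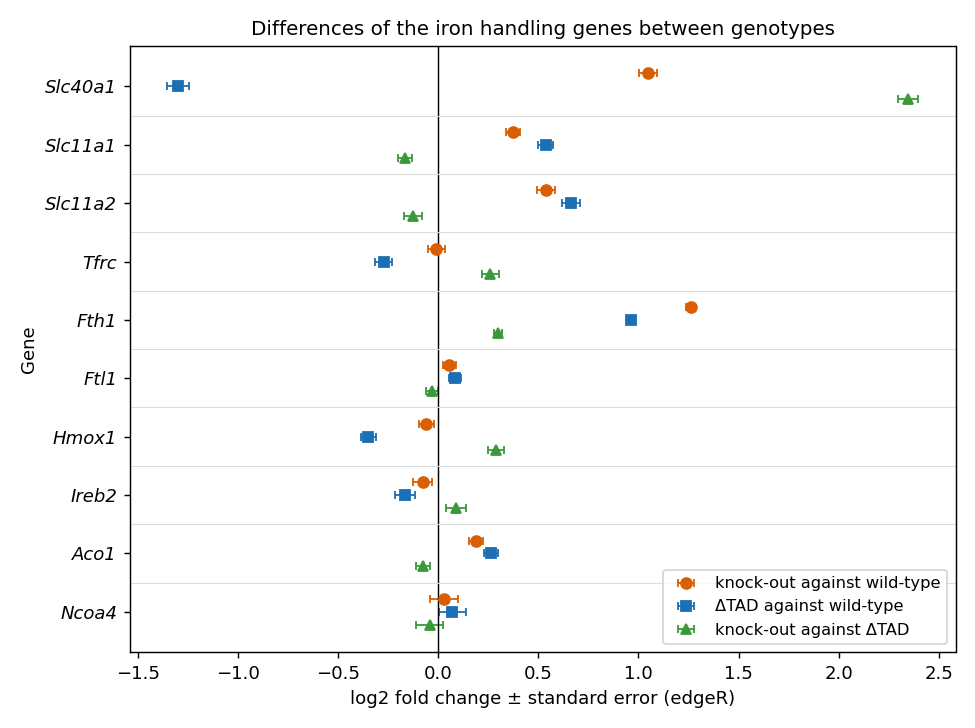
Fitted log2 fold change with its standard error (x axis) of each gene (y axis) for knock-out against wild-type (circles), ΔTAD against wild-type (squares) and knock-out against ΔTAD macrophages (triangles). Slc40a1 lies at 1.05 and -1.30 on opposite sides of 0, and Fth1 at 1.26 and 0.96 on the same side.

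The mRNA of the heavy ferritin subunit rose in both edited genotypes and that of the light subunit was not called in either. Fth1 (ENSMUSG00000024661), whose product oxidizes iron as it enters the ferritin shell, was at 1596, 1528 and 1504 CPM in wild-type, at 3685, 3673 and 3741 CPM in knock-out and at 3015, 2978 and 3027 CPM in ΔTAD macrophages. All libraries of the 3 genotypes were separate, with knock-out the highest. Its log2 fold change was 1.26 ± 0.0223 for knock-out (2.40-fold, edgeR adjusted p = 1.91e-23) and 0.96 ± 0.0221 for ΔTAD macrophages (1.95-fold, adjusted p = 2.55e-21). It was 0.30 ± 0.0219 higher in knock-out than in ΔTAD macrophages (adjusted p = 8.1e-11).

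Ftl1 (ENSMUSG00000050708), whose product lines the ferritin core where iron is laid down, was at 1611, 1480 and 1479 CPM in wild-type, at 1616, 1533 and 1606 CPM in knock-out and at 1578, 1642 and 1629 CPM in ΔTAD macrophages. The libraries of all 3 genotypes overlapped. The log2 fold change was 0.06 for knock-out (95% interval -0.00305 to 0.12, edgeR adjusted p = 0.122) and 0.09 for ΔTAD macrophages (0.03 to 0.15, adjusted p = 0.0193). Without wild-type replicate 1, Ftl1 was called higher in knock-out (0.10, adjusted p = 0.00293) and in ΔTAD macrophages (0.13, adjusted p = 0.00034). Scaling by library size alone turned the ΔTAD value to -0.00262 (adjusted p = 0.976).

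The light to heavy ratio was also taken within each library, where the scaling between libraries has no part. The log2 ratio of Ftl1 to Fth1 counts was 0.01, -0.05 and -0.02 in the wild-type libraries, -1.19, -1.26 and -1.22 in knock-out and -0.93, -0.86 and -0.89 in ΔTAD macrophages. The groups did not overlap, and wild-type cells alone had about as many Ftl1 as Fth1 counts. Knock-out differed from wild-type by -1.20 and ΔTAD by -0.88, and that between knock-out and ΔTAD was -0.33. Each gave p = 0.1 in an exact two-sided permutation test (adjusted p = 0.1 over 3 pairs), which is the smallest p that 3 against 3 libraries allow.

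**Figure D3:**
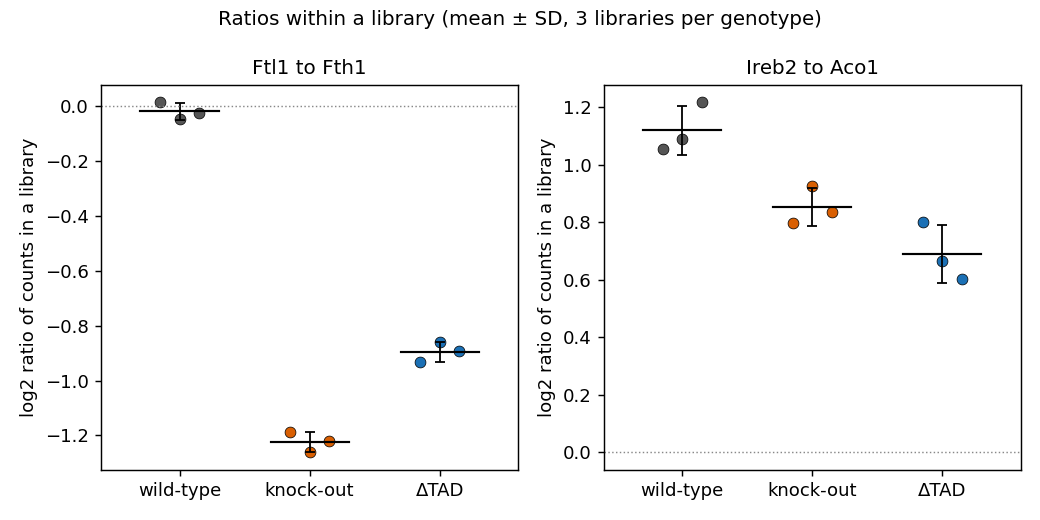
Log2 ratio of counts within each library (y axis) by genotype (x axis) for Ftl1 to Fth1 (left) and Ireb2 to Aco1 (right), with points for libraries and bars for mean ± SD of 3 libraries. The ferritin ratio lies near 0 in wild-type, between -1.26 and -1.19 in knock-out and between -0.93 and -0.86 in ΔTAD macrophages.

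Ferritin genes have near-identical processed copies. Fth-ps3 had 7 to 18 counts in wild-type, 24 to 40 in knock-out and 22 to 41 in ΔTAD libraries, and Ftl1-ps1 had 46 to 72 counts in any library. Reads shared with such copies may have been set aside as not unique, so the absolute levels of Fth1 and Ftl1 are uncertain. Summing the copies with their parent gene left the ratio differences at -1.20 and -0.88. The gene Gm10252, which lies antisense to Ftl1, had 23 to 63 counts and cannot be told apart from Ftl1 where the counting did not use strand.

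The ferritin promoters are shown because Fth1 and Ftl1 differed in mRNA, and whether the promoters have a part in this was not tested. RefSeq windows on GRCm38.p6 were available for 7 of the 10 genes, 11 windows in all, and the 250 bases before each start were searched on both strands for CCAAT and for TTGCNNAA, a C/EBP-type motif. Capitals mark both motifs in either orientation. Fth1 has 2 windows, of which the one at chr19:9980350-9980599 holds neither motif and is not printed. The Fth1 window shown lies at chr19:9982396-9982645 on the plus strand and the Ftl1 window at chr7:45459887-45460136 on the minus strand.
Fth1 promoter: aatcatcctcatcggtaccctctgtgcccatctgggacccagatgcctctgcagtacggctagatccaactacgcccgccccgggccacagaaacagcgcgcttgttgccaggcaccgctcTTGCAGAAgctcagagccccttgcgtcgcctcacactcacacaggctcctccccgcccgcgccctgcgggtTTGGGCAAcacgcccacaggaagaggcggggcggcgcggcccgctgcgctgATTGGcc
Ftl1 promoter: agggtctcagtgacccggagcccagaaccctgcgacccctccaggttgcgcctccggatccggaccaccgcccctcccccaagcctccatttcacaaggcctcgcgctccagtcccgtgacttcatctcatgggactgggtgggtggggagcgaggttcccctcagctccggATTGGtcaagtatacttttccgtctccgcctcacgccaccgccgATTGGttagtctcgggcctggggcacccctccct

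CCAAT was present in 3 of the 11 windows (27.3%), 1 each of Tfrc, Fth1 and Ftl1, and in 33.8% of all 32851 windows. TTGCNNAA was present in 1 of the 11 (9.09%), the Fth1 window shown, with matches 129 and 58 bases before the start, and in 9.56% of all windows. Neither share exceeds that of all windows. These matches are letters in a window and not measured binding sites. CCAAT sites are also bound by factors outside the C/EBP family, and the study names NF-Y among them.

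The mRNA of both members of the NRAMP family was higher in both edited genotypes. Slc11a1 (ENSMUSG00000026177), which moves metal out of the phagosome, was at 85.3, 82.1 and 80.6 CPM in wild-type, at 107.3, 103.3 and 110.8 CPM in knock-out and at 115.7, 121.7 and 122.1 CPM in ΔTAD macrophages. The 3 genotypes did not overlap. Its log2 fold change was 0.37 ± 0.0364 for knock-out (edgeR adjusted p = 3.42e-09) and 0.54 ± 0.0359 for ΔTAD macrophages (adjusted p = 3e-12). Between knock-out and ΔTAD the difference was -0.16 (adjusted p = 0.000537), and with library size alone as the scaling it was -0.09 and not called (adjusted p = 0.257).

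Slc11a2 (ENSMUSG00000023030), which brings ferrous iron out of endosomes, was at 41.5, 38.8 and 42.0 CPM in wild-type, at 60.3, 60.5 and 56.9 CPM in knock-out and at 66.2, 65.6 and 62.2 CPM in ΔTAD macrophages. Every edited library exceeded every wild-type library. The log2 fold change was 0.54 ± 0.0459 for knock-out (edgeR adjusted p = 3.33e-10) and 0.66 ± 0.0452 for ΔTAD macrophages (adjusted p = 4.39e-12). Knock-out and ΔTAD differed by -0.12 (95% interval -0.21 to -0.04), which did not pass the threshold (adjusted p = 0.0208). Without ΔTAD replicate 3 that difference was -0.16 and was called (adjusted p = 0.00986).

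Transferrin receptor mRNA fell in ΔTAD macrophages and stayed close to wild-type in knock-out macrophages. Tfrc (ENSMUSG00000022797), which takes up transferrin-bound iron, was at 1072, 1131 and 1123 CPM in wild-type, at 1060, 1136 and 1107 CPM in knock-out and at 988, 937 and 831 CPM in ΔTAD macrophages. Knock-out and wild-type libraries overlapped, and all ΔTAD libraries lay below them with a wide spread. The log2 fold change was -0.01 for knock-out (95% interval -0.09 to 0.07, edgeR adjusted p = 0.86) and -0.27 ± 0.0425 for ΔTAD macrophages (adjusted p = 5.88e-06). The difference between knock-out and ΔTAD was 0.26 ± 0.0425 (adjusted p = 2.42e-05). Without ΔTAD replicate 1, which stood apart, the ΔTAD value was -0.35, and without ΔTAD replicate 3 it was -0.21, called in both cases. Because Tfrc is high in dividing cells, 12 proliferation genes were also counted. In ΔTAD macrophages 2 were called higher (Ccna2 and Pcna), 2 lower (Ccnb1 and Rrm2) and 8 not, shares below the 26.3% and 23.4% of all genes. In knock-out macrophages 1 was called higher (8.33%, against 22.8% of all genes) and 5 lower (41.7%, against 22.4%), and their part in the Tfrc values was not tested.

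Heme oxygenase mRNA also fell in ΔTAD macrophages. Hmox1 (ENSMUSG00000005413), which frees iron from heme, was at 340, 311 and 326 CPM in wild-type, at 311, 311 and 316 CPM in knock-out and at 253, 249 and 266 CPM in ΔTAD macrophages. Only the ΔTAD libraries were separate from the rest. The log2 fold change was -0.06 for knock-out (95% interval -0.13 to 0.02, edgeR adjusted p = 0.207) and -0.35 ± 0.0383 for ΔTAD macrophages (adjusted p = 2.52e-08). Knock-out exceeded ΔTAD macrophages by 0.29 ± 0.0384 (adjusted p = 1.58e-06).

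Hmox1, both ferritins and Slc40a1 are known targets of the oxidative stress factor NRF2 and its rival repressor BACH1. Of 13 other such targets, 6 were called higher and 2 lower in knock-out macrophages, and 4 higher and 7 lower in ΔTAD macrophages. Knock-out against ΔTAD gave 7 higher and 2 lower. The shares of all tested genes were 22.8% and 22.4%, 26.3% and 23.4%, and 13.9% and 19.1% in these 3 comparisons, higher and lower in turn. Targets were thus called in both directions in each edited genotype. Slc7a11, the cystine importer, had log2 fold changes of 0.18 for knock-out (edgeR adjusted p = 0.000493) and -0.72 for ΔTAD macrophages (adjusted p = 2.94e-13), and Gclm, a subunit of the enzyme that starts glutathione synthesis, had 0.31 (adjusted p = 7.04e-09) and -0.22 (adjusted p = 2.76e-06). Prdx1, a peroxiredoxin, likewise had 0.21 and -0.20, both called. Srxn1 (0.79 and 0.23), Gclc (0.57 and 0.40) and Taldo1 (0.17 and 0.56) were called higher in both edited genotypes, and Gsr (-0.18 and -0.28) and G6pdx (-0.23 and -0.16) lower in both. Nqo1, low at 1.72 CPM in wild-type, was at -0.79 in knock-out (not called, edgeR adjusted p = 0.0123) and at -2.48 in ΔTAD macrophages (called, adjusted p = 5.29e-07). These targets were named after their values were seen. Nfe2l2, the gene of NRF2, was at 0.07 and 0.06 and not called in either genotype (adjusted p = 0.129 and 0.188). Bach1, the gene of BACH1, was called higher in both, at 0.71 and 0.84 (adjusted p = 5.87e-10 and 1.58e-11). These are mRNA levels and not the activity of either factor, and whether NRF2 or BACH1 has a part in the results was not tested.

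The mRNA of the iron sensors differed from wild-type by at most 0.26 on the log2 scale. Aco1 (ENSMUSG00000028405), the gene of IRP1, was at 78.2, 82.3 and 76.7 CPM in wild-type, at 89.9, 88.8 and 91.9 CPM in knock-out and at 95.7, 96.9 and 92.3 CPM in ΔTAD macrophages. The 3 genotypes did not overlap. Its log2 fold change was 0.19 ± 0.0353 for knock-out (edgeR adjusted p = 6.41e-05) and 0.26 ± 0.035 for ΔTAD macrophages (adjusted p = 5.08e-07). Knock-out and ΔTAD differed by -0.07, which was not called (edgeR adjusted p = 0.0831). With library size alone as the scaling the knock-out value was 0.17 and was not called (adjusted p = 0.0124).

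Ireb2 (ENSMUSG00000032293), the gene of IRP2, was at 162, 175 and 178 CPM in wild-type, at 156, 169 and 164 CPM in knock-out and at 167, 154 and 140 CPM in ΔTAD macrophages. Libraries of all genotypes overlapped. The log2 fold change was -0.08 for knock-out (95% interval -0.17 to 0.02, edgeR adjusted p = 0.189) and -0.17 ± 0.0488 for ΔTAD macrophages (adjusted p = 0.00517). This call was lost without ΔTAD replicate 2 (-0.17, adjusted p = 0.0107) or 3 (-0.11, adjusted p = 0.0545), and without wild-type replicate 2 (-0.15, adjusted p = 0.0313) or 3 (-0.14, adjusted p = 0.0338). Without ΔTAD replicate 1 it was -0.25. Knock-out exceeded ΔTAD by 0.09 (adjusted p = 0.144), and by 0.17 without that same library, which was called (adjusted p = 0.00142).

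Within a library, the log2 ratio of Ireb2 to Aco1 counts averaged 1.12 ± 0.0851 among wild-type, 0.85 ± 0.0658 among knock-out and 0.69 ± 0.101 among ΔTAD libraries (SD, n = 3). Every edited library lay below every wild-type library. The differences from wild-type of -0.27 and -0.43 each gave p = 0.1 in the exact permutation test (adjusted p = 0.15 over 3 pairs), which 3 libraries cannot go under. Knock-out and ΔTAD libraries overlapped in this ratio (difference 0.16, exact permutation p = 0.2, adjusted p = 0.2).

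The ferritin receptor Ncoa4 (ENSMUSG00000056234) was not called in any comparison. It was at 26.7, 23.8 and 24.9 CPM in wild-type, at 27.2, 25.4 and 24.4 CPM in knock-out and at 27.9, 24.7 and 27.0 CPM in ΔTAD macrophages, and all genotypes overlapped. The log2 fold change was 0.03 for knock-out (95% interval -0.10 to 0.16, edgeR adjusted p = 0.748) and 0.07 for ΔTAD macrophages (-0.06 to 0.20, adjusted p = 0.385).

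The other genes of iron metabolism were counted from a list of which 78 could be tested and 23 could not. In knock-out macrophages 19 of the 78 were called higher (24.4%) and 18 lower (23.1%), a share near that of all genes. In ΔTAD macrophages 31 were called higher (39.7%, against 26.3% of all genes) and 15 lower (19.2%, against 23.4%). Knock-out against ΔTAD gave 5 higher (6.41%, against 13.9%) and 27 lower (34.6%, against 19.1%). The list's median log2 fold change was -0.03 for knock-out and 0.08 for ΔTAD macrophages. With library size alone as the scaling the ΔTAD count was 17 higher and 17 lower, and the 27 became 10, so these counts depend on the scaling. The shares of all genes under that scaling are not given here, so whether a surplus over them remains cannot be told.

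**Figure D4:**
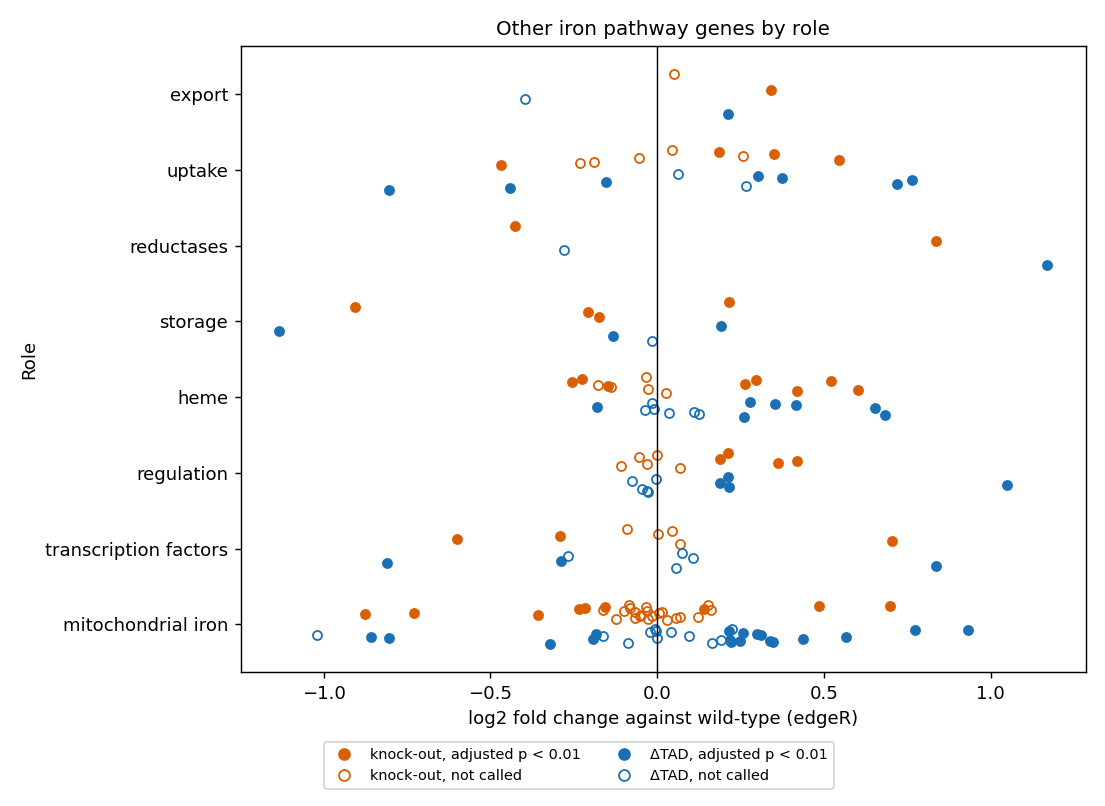
Log2 fold change against wild-type (x axis) of the tested genes of iron metabolism outside the 10, by role (y axis), for knock-out (orange) and ΔTAD macrophages (blue), filled where the adjusted p-value was under 0.01. Of 30 mitochondrial iron genes 3 were called higher and 6 lower in knock-out, and 13 higher and 5 lower in ΔTAD macrophages (5 higher and 6 lower there with library size alone as the scaling), where 22.8% of all genes were called higher in knock-out and 26.3% in ΔTAD. Nedd4 and Nedd4l lie beyond the left edge and are not drawn.

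The mRNA of partners of ferroportin was scarce. The ferroxidases Heph, Cp and Hephl1 and the ferroportin-binding hormone Hamp (hepcidin) had at most 4 counts in any library, and none was tested. Flvcr1, which exports heme, was higher in knock-out (0.34, edgeR adjusted p = 7.22e-07) and in ΔTAD macrophages (0.21, adjusted p = 0.000311). Spic, a transcription factor of red pulp macrophages, had at most 1 count.

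Of 9 tested uptake genes, 3 were called higher and 1 lower in knock-out (33.3% and 11.1%), and 4 higher and 3 lower in ΔTAD macrophages (44.4% and 33.3%). In this and the following roles, the shares of all tested genes to set beside the counts are 22.8% higher and 22.4% lower in knock-out and 26.3% and 23.4% in ΔTAD macrophages. Lrp1, a receptor for heme bound to hemopexin, was at 1361 ± 59.4 CPM in wild-type, 1984 ± 73.1 in knock-out and 2238 ± 88.1 CPM in ΔTAD macrophages (SD, n = 3), with log2 fold changes of 0.54 and 0.72 (edgeR adjusted p = 3.04e-13 and 1.2e-15). Slc39a14, which imports iron not bound to transferrin, was at 171 ± 2.40 CPM in wild-type, 124 ± 1.18 in knock-out and 97.8 ± 2.28 CPM in ΔTAD macrophages, with log2 fold changes of -0.47 and -0.80 (adjusted p = 5.67e-12 and 1.82e-16). Steap3, the endosomal reductase that prepares iron for DMT1, rose from 44.7 ± 2.39 CPM in wild-type to 79.7 ± 1.76 for knock-out and 100 ± 2.19 CPM for ΔTAD macrophages (log2 fold changes 0.84 and 1.17, adjusted p = 7.38e-15 and 4.44e-18).

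Of 4 tested storage partners, 1 was called higher (25%, against 22.8% of all genes) and 3 lower (75%, against 22.4%) in knock-out, and 1 higher and 2 lower in ΔTAD macrophages (25% and 50%, against 26.3% and 23.4%). Pcbp4, of the family of poly(C)-binding proteins whose best known members bring iron to ferritin, fell from 6.73 ± 0.778 CPM in wild-type to 3.55 ± 0.948 for knock-out and 3.05 ± 0.127 CPM for ΔTAD macrophages (log2 fold changes -0.91 and -1.13, edgeR adjusted p = 2.14e-05 and 1.09e-06). The more abundant Pcbp1 and Pcbp2 (356 and 461 CPM in wild-type) changed less. Their log2 fold changes were -0.17 and -0.02 for Pcbp1, and -0.21 and -0.13 for Pcbp2. With library size alone as the scaling, 1 storage partner was called higher and 2 lower in knock-out, and 0 higher and 2 lower in ΔTAD macrophages.

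Heme synthesis and breakdown gave 13 tested genes, 5 called higher and 3 lower in knock-out (38.5% and 23.1%, against 22.8% and 22.4% of all genes), and 6 higher and 1 lower in ΔTAD macrophages (46.2% and 7.69%, against 26.3% and 23.4%). The biliverdin reductases act just after heme oxygenase. Blvrb was 0.60 higher in knock-out on the log2 scale (edgeR adjusted p = 1.28e-08) and at 0.13 in ΔTAD macrophages, not called (adjusted p = 0.104). Blvra was higher in both, by 0.42 (adjusted p = 2.49e-10) and 0.68 (adjusted p = 1.59e-14).

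Among 11 tested regulators, Nedd4, a ubiquitin ligase, fell in both genotypes. It was at 415 ± 3.83 CPM in wild-type macrophages, had at most 1 count per library for knock-out (at least 2444-fold lower against a floor of 3 counts per library), and was at 16.4 ± 1.25 CPM for ΔTAD macrophages (log2 fold change -4.67, edgeR adjusted p = 4.99e-29). In this role 4 genes were called higher and 2 lower in each genotype (36.4% and 18.2%), and with library size alone the 4 higher in ΔTAD macrophages became 1. Of 7 transcription factors 1 was called higher and 2 lower in each genotype (14.3% and 28.6%), and the higher one was Bach1, with log2 fold changes of 0.71 for knock-out (adjusted p = 5.87e-10) and 0.84 for ΔTAD macrophages (adjusted p = 1.58e-11).

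The 30 tested mitochondrial iron and iron-sulfur cluster genes gave 3 higher and 6 lower in knock-out (10% and 20%, against 22.8% and 22.4% of all genes) and 13 higher and 5 lower in ΔTAD macrophages (43.3% and 16.7%, against 26.3% and 23.4%). Knock-out against ΔTAD gave 1 higher and 14 lower (3.33% and 46.7%, against 13.9% and 19.1%). With library size alone as the scaling, 5 were called higher and 6 lower in ΔTAD macrophages, and 2 higher and 4 lower in knock-out against ΔTAD. These counts thus depend on the scaling, and the shares of all genes under that scaling are not given here. Glrx5, which passes on iron-sulfur clusters in mitochondria, fell from 122 ± 3.51 CPM in wild-type to 66.8 ± 0.425 for knock-out and 70.1 ± 0.872 CPM for ΔTAD macrophages (log2 fold changes -0.88 and -0.81, edgeR adjusted p = 5.14e-17 and 1.72e-16). Narfl, of the cytosolic iron-sulfur machinery, rose from 25.7 ± 0.590 CPM to 41.7 ± 1.40 in knock-out and 48.8 ± 2.76 CPM in ΔTAD macrophages (0.70 and 0.93, adjusted p = 1.41e-10 and 3.18e-13).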

How the data were processed

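RNA of 9 unstimulated RAW264.7 libraries, 3 per genotype by the labels, was depleted of ribosomal RNA, sequenced, and aligned to GRCm38. The submitters' processing notes name Trimmomatic 0.36, HISAT2 2.3.4.3 and HTSeq, and strand and overlap settings are not given in the sources used here. The authors deposited raw counts per Ensembl gene for each library, with 5 tally lines that were left out. Here, edgeR 4.0.16 (R 4.3.3) was used with filterByExpr (minimum count 10, total 15, 14312 genes), TMM scaling and 1 quasi-likelihood model of all 9 libraries. P-values were adjusted over all genes by Benjamini-Hochberg and called under 0.01, the threshold of the study. SE is the log2 fold change over the square root of F. The floor of 3 counts equals 0.143 to 0.186 CPM and covers counting error only. Steps were tested on simulated data.

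The members and lists were chosen with earlier results of these data known. Named by rule were every member and the 5 genes with the highest r with Slc40a1. So was the called gene with the largest change per role and edited genotype (among those at 1 CPM or more on average in the higher group). Other genes, such as Pcbp1, Pcbp2, ferroportin partners, markers, proliferation genes and NRF2 and BACH1 targets, were named outside this rule. Also tried were limma-voom (limma 3.58.1), DESeq2 1.42.0, other scalings, filters and thresholds, fits of 2 genotypes, a replicate block, pooled ferritin copies and each library left out. Gene models were GENCODE's for GRCm38, and promoters RefSeq's (GRCm38.p6).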

Additional observations from a re-analysis of the deposited data

Results flagged for a closer look

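Knock-out and ΔTAD effects against wild-type were compared for the 10 genes, as log2 differences of the effects. For Slc40a1 the difference was 2.35, with every knock-out library above and every ΔTAD library below wild-type, and it was not tested because the gene was chosen for it. Of the other 9 genes, 4 passed edgeR's test of knock-out against ΔTAD, where 33% of all tested genes were called. They were Fth1 (0.30, edgeR adjusted p = 8.1e-11), Hmox1 (0.29, adjusted p = 1.58e-06), Tfrc (0.26, adjusted p = 2.42e-05) and Slc11a1 (-0.16, adjusted p = 0.000537). These 4 stayed called without ΔTAD replicate 1, at 0.33, 0.31, 0.34 and -0.16.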

How the results depend on the processing

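Of 516 fold changes of the 10 genes under alternatives, 493 kept their direction and call (for Slc40a1, moved by less than its spread). Of 228 counts, 210 were unchanged or within a set fold limit of the main count, and all 39 ratio differences kept their sign. With library size alone, Slc40a1 moved to -1.38 in ΔTAD macrophages and 2.42 between edited genotypes, the ΔTAD effects of Ftl1 and Ncoa4 turned to -0.00262 and -0.0142, their knock-out minus ΔTAD values to 0.0448 and 0.0289, and Aco1 in knock-out (0.17) and Slc11a1 in knock-out against ΔTAD (-0.0906) lost their calls. Under it, other iron genes called higher in ΔTAD fell to 17, those lower in knock-out against ΔTAD to 10, and members lower there to 0. With every gene with at least 1 count, Ftl1 in ΔTAD (0.11) and Slc11a2 in knock-out against ΔTAD (-0.14) gained calls, making 2 members lower in knock-out against ΔTAD. An adjusted p under 0.05 made these 2, and 11 other iron genes higher there. A log2 fold change of at least 1 left 1 member higher in knock-out and 0 in every other count of members that was above 0; of other iron genes it left 0 higher and 2 lower in knock-out, 2 and 3 in ΔTAD, and 0 and 1 in knock-out against ΔTAD. The cause was not tested.

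Leaving out each library in turn gave, in knock-out, -0.0280 to 0.0233 for Tfrc, 0.0358 to 0.105 for Ftl1 and -0.00825 to 0.0827 for Ncoa4. In ΔTAD it gave 0.0657 to 0.130 for Ftl1, -0.25 to -0.11 for Ireb2 and -0.35 to -0.21 for Tfrc. For knock-out against ΔTAD it gave -0.159 to -0.0835 for Slc11a2, -0.0431 to 3.18e-05 for Ftl1, 0.0221 to 0.174 for Ireb2 and -0.0982 to 0.0168 for Ncoa4, with 1 to 2 members called lower.

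Libraries with the same replicate number did not deviate together (r from -0.07 to 0.02 over 9 pairs), and pairs with different numbers ranged from -0.05 to 0.08. The number is not stated to pair libraries, and r cannot show whether they were handled together. With the replicate block the counts of members called were 4 higher and 0 lower in knock-out, 4 and 3 in ΔTAD and 3 and 1 between edited genotypes, and other iron genes called higher in ΔTAD were 31.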
